A study of Mus musculus with 29 samples.

Results

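The cyclin-dependent kinase inhibitors are the 7 genes Cdkn1a, Cdkn1b, Cdkn1c, Cdkn2a, Cdkn2b, Cdkn2c and Cdkn2d, taken by symbol from the count files of a mouse hypothalamus ageing series, which list 24499 gene symbols. All 7 are in the files, and 6 had enough reads to be tested. Cdkn2a fell under the filter on low counts and is described from its reads. RNA sequencing was done on tissue labelled hypothalamus of wild-type (WT) C57BL/6 mice labelled male, with no treatment, kept singly in a light-dark cycle and dissected near the middle of the light phase. The ages were postnatal day 5 (P5, 3 libraries), 3 weeks (3), 4 weeks (4), 5 weeks (4), 2 months (3), 6 months (3), 12 months (3), 18 months (3) and 24 months (3, of which 2 were used). The tissue is given as hypothalamus in the labels, while the sample titles of 8 of the 9 ages carry the letters thal, tha or th, whose meaning the labels do not give. Every library is the whole dissected tissue, so that fewer cells of a type and less RNA per cell cannot be told apart in any result here. The labels do not say whether the libraries of an age came from separate mice, and p-values reflect only how far these libraries spread, which may be technical.

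Cyclin-dependent kinases drive a cell through its division cycle, and the inhibitors hold them back. The Cip/Kip inhibitors (Cdkn1a for p21, Cdkn1b for p27 and Cdkn1c for p57) bind complexes of several kinases with their cyclins. The INK4 inhibitors (Cdkn2a for p16Ink4a, Cdkn2b for p15, Cdkn2c for p18 and Cdkn2d for p19Ink4d) bind only CDK4 and CDK6, which with D-type cyclins phosphorylate the retinoblastoma protein. In the brain the inhibitors are known for the exit of neural precursors from division, Cdkn1b and Cdkn2d stay expressed in neurons, and p21 and p16Ink4a are widely used as marks of senescent cells.

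The upstream sequences of Cdkn1a and Cdkn2a are shown because Cdkn1a had the largest change of the 6 tested members, and because Cdkn2a makes a pair of proteins from separate starts that a gene count adds together. They are the bases before each RefSeq start (GRCm38.p6), without the few that GENCODE M21 places in an exon of the gene. Capitals mark the matches to the motifs searched. The Cdkn1a windows are chr17:29090729-29090975 and chr17:29093519-29093768, both on the plus strand, with starts 2.79 kb apart, and the second lies inside the gene. The Cdkn2a windows are chr4:89294654-89294869 and chr4:89282193-89282442, both on the minus strand, with starts 12.4 kb apart. The first stands before the transcript of p19Arf, an activator of p53 read in another frame, and the second, inside the gene, before that of p16Ink4a.
Cdkn1a, first start: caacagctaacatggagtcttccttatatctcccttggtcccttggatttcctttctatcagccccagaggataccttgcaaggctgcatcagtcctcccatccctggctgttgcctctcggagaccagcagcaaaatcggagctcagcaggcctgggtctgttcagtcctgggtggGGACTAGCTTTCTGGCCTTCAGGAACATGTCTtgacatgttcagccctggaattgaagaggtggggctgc
Cdkn1a, second start: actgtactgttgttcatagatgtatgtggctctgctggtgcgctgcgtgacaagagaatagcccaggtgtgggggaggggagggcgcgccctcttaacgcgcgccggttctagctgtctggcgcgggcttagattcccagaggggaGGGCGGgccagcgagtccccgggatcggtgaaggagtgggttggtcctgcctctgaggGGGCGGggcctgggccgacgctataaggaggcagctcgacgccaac
Cdkn2a, first start (p19Arf): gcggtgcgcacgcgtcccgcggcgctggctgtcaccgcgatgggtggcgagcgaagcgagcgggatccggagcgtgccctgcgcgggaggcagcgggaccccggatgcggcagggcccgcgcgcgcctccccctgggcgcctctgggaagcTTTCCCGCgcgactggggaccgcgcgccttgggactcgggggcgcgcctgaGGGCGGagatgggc
Cdkn2a, second start (p16Ink4a): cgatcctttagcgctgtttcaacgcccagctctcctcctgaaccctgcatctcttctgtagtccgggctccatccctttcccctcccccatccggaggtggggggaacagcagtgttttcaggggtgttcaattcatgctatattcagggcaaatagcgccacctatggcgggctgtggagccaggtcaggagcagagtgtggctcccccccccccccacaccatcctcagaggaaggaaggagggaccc
Before the first Cdkn1a start the capitals are a match of 32 bases to the p53 response element consensus, 73 bases before the start. This motif was added to the search after the sequence had been seen, and 0.0639% of the 32851 promoters of the RefSeq table hold a match in 250 bases. Before the second Cdkn1a start and the p19Arf start the capitals are GC boxes (GGGCGG, in 32.7% of promoters). The p19Arf window also holds one of the 4 E2F words searched (TTTGGCGC, TTTCCCGC, TTTCGCGC and TTTGCCGC), which 1.86% of promoters hold. The p16Ink4a window had no match to these, to CACGTG (6.02% of promoters), to TATAAA (12.4%) or to CCAAT (33.8%). Both strands were read, no matches in the printed windows overlapped, and a match is only a match of letters. GC content was 78.7% in the p19Arf window, 60.0% in the p16Ink4a window, 54.3% before the first Cdkn1a start and 64.8% before the second, beside a median of 52.4% over all promoters.

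The members lie on 5 chromosomes of GRCm38. Cdkn1a is on chromosome 17 (29090976 to 29100727, plus strand), Cdkn1b on chromosome 6 (134920401 to 134925513, plus strand) and Cdkn1c on chromosome 7 (143458339 to 143461050, minus strand). On chromosome 4 and its minus strand, Cdkn2a (89274471 to 89294653) and Cdkn2b (89306299 to 89311039) are neighbours 11.6 kb apart, and Cdkn2c (109660876 to 109667189) is farther along. Cdkn2d is on chromosome 9 (21288410 to 21291407, minus strand). The longest run of bases that transcripts of any pair of members share is 23, for Cdkn2a with Cdkn2b and for Cdkn1a with Cdkn1b. Exons of Cdkn1a overlap those of AC167363.2 by 273 bases on the opposite strand, and exons of Cdkn1c overlap the antisense gene Gm44732 by 625 bases. Whether the authors' counting used strand is not stated in the notes and labels used here. Reads of these partners could therefore be mixed with those of the members.

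The 28 libraries used held 24661631 to 39783779 gene counts, so that 3 reads correspond to 0.075 to 0.118 CPM, the count scaled to a library of 1000000 gene counts. One file of 24 months held counts in 1385 genes, none of them a member, and was left out. P5 replicates 1 and 2, labelled male, had 746 and 791 CPM of Xist and no read of the Y-linked Ddx3y, and replicate 3 had 0.223 CPM of Xist and 55.1 CPM of Ddx3y. The 2-month libraries had the lowest summed level of 16 hypothalamus markers, at 123 to 239 CPM, against 265 CPM or more in the other libraries, and none of these markers was at 0 in any library. Markers of the neighbouring thalamus (9 genes) summed to 898 to 2251 CPM over all libraries. Choroid plexus markers (10 genes, none at 0 in any library) summed to 7162 CPM in 12 months replicate 28 and to 4842 CPM in 18 months replicate 14, against at most 2656 CPM elsewhere.

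Per kilobase of merged exon, Cdkn2d was the most abundant inhibitor at every age, and Cdkn1a was near it only at P5. The order at P5 depends on the length used. Merged exons span 3553 bases for Cdkn1a, whose longest transcript has 2080, and 1574 for Cdkn2d, whose longest has 1423. In plain CPM the P5 means were 126 for Cdkn1a, 74.1 for Cdkn2d, 48.4 for Cdkn1b and 37.9 for Cdkn1c. Per kilobase, the P5 means were 47.1 CPM per kb for Cdkn2d, 35.4 for Cdkn1a, 18.6 for Cdkn1c and 10.6 for Cdkn1b. They were 3.35 for Cdkn2c, 0.532 for Cdkn2b and 0.0672 for Cdkn2a. At 24 months they were 34.6 CPM per kb for Cdkn2d, 11.1 for Cdkn1b, 3.04 for Cdkn1c, 2.77 for Cdkn1a, 0.601 for Cdkn2b, 0.449 for Cdkn2c and 0.127 for Cdkn2a. By this measure Cdkn1b was below Cdkn1a and Cdkn1c at P5 and above both in the oldest libraries. Summed per kilobase, the Cip/Kip genes gave 64.6 ± 4.56 CPM per kb at P5, 21.8 ± 1.22 at 3 weeks and 17.9 ± 1.47 at 6 months (SD, n = 3 each). The INK4 genes gave 51.1 ± 0.458, 42.2 ± 0.590 and 33.9 ± 0.899 CPM per kb at the same ages (SD, n = 3 each). Per kilobase, the Cip/Kip sum was above the INK4 sum at P5 and below it at every later age. This order too depends on the lengths used.

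**Figure D1:**
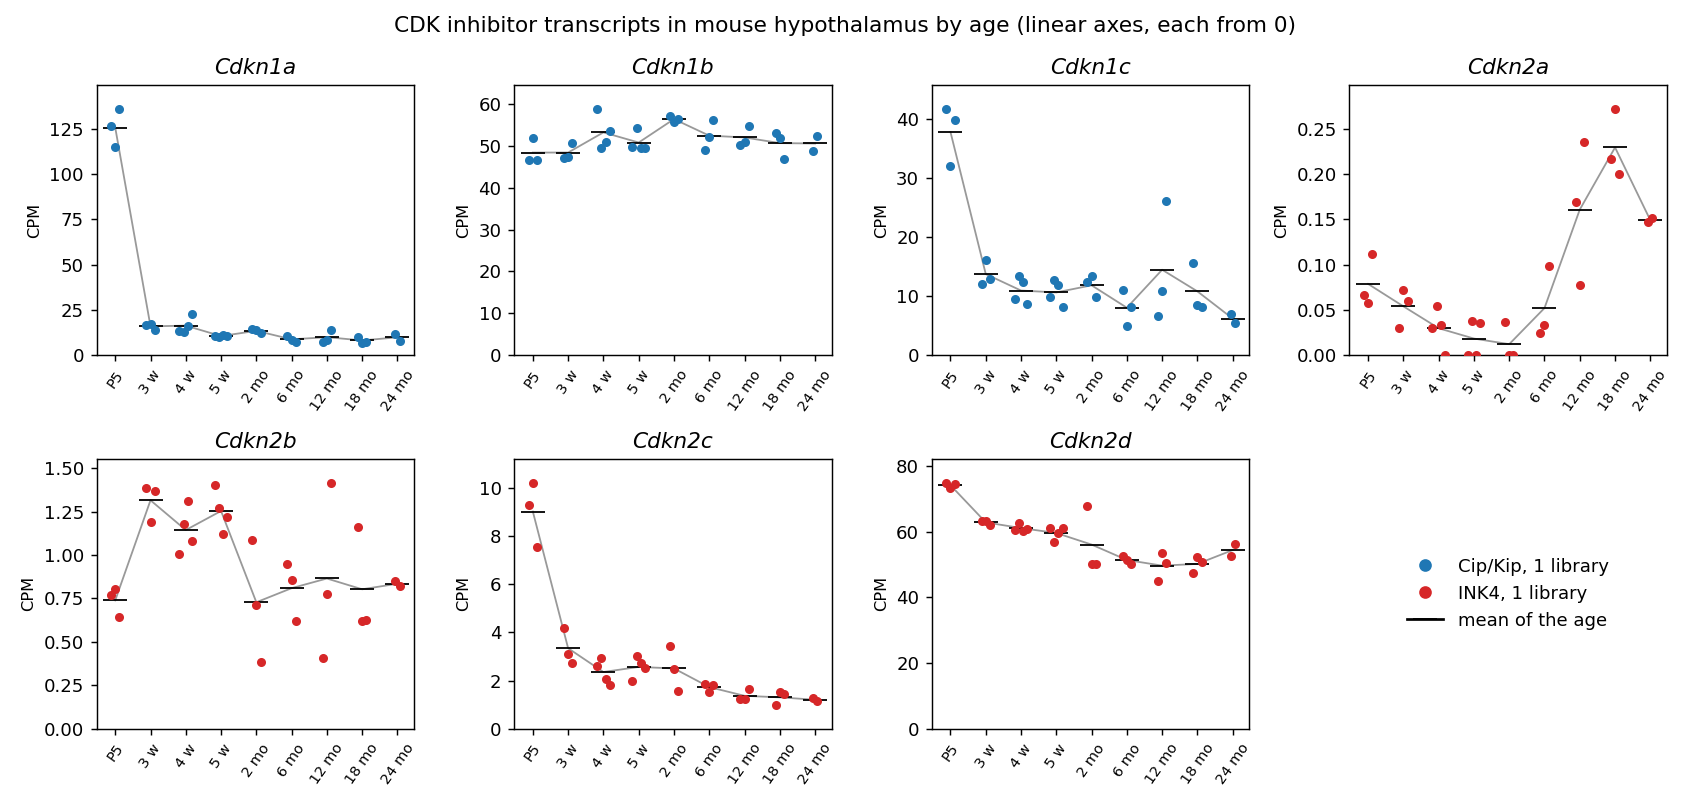
Level of each CDK inhibitor in CPM (vertical, linear from 0) by age (horizontal), with 1 point per library and a black mark at the mean of the age. Cdkn1a, Cdkn1c, Cdkn2c and Cdkn2d are highest at P5, Cdkn1b stays between 46.6 and 58.7 CPM, and Cdkn2a lies at or under 0.272 CPM in every library.

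Over the 9 ages 4 of the 6 tested members changed (edgeR quasi-likelihood F-test, adjusted p below 0.05), beside 76.8% of all tested genes. They were Cdkn1a (adjusted p = 9.74e-15), Cdkn2c (3.69e-10), Cdkn2d (9.04e-06) and Cdkn1c (4.61e-05). Cdkn1b (adjusted p = 0.116) and Cdkn2b (adjusted p = 0.0839) did not pass. Without the P5 libraries Cdkn1a, Cdkn2c and Cdkn2d were still called, and Cdkn1c was not (adjusted p = 0.229).

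The step from the first postnatal week to weaning held the largest changes of the tested members. At 3 weeks against P5, 4 members were lower, beside 29.3% of all tested genes, and 1 was higher, beside 29.8%. The median log2 change of the 6 tested members was -0.83, against -0.01 over all tested genes.

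Among the Cip/Kip genes Cdkn1a, whose product p21 is a classic target of p53, had 16.4, 17.2 and 14.02 CPM at 3 weeks, against 127, 115 and 136 CPM at P5. The P5 libraries stood apart from all 25 later ones, of which the highest was 22.7 CPM. The level was 7.92-fold lower at 3 weeks (log2 change -2.99 ± 0.21 SE, adjusted p = 2.61e-11). Cdkn1c, a maternally expressed imprinted gene for p57, had 12.1, 16.2 and 12.9 CPM at 3 weeks, against 41.7, 32.01 and 39.9 CPM at P5. The groups did not overlap, and the level was 2.76-fold lower at 3 weeks (log2 change -1.46 ± 0.36 SE, adjusted p = 0.00124). Cdkn1b, for p27, had 47.1, 47.4 and 50.7 CPM at 3 weeks, against 46.6, 52.0 and 46.6 CPM at P5, and the groups overlapped. Its log2 change was 0.00 ± 0.07 SE, with a 95% interval of 0.904-fold to 1.11-fold, so that these libraries place any change at 3 weeks within that range.

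Among the INK4 genes Cdkn2c, for p18, had 4.18, 3.11 and 2.74 CPM at 3 weeks, against 9.30, 10.2 and 7.54 CPM at P5. The groups did not overlap, and the level was 2.69-fold lower at 3 weeks (log2 change -1.43 ± 0.23 SE, adjusted p = 9.06e-06). Cdkn2d, for p19Ink4d, had 63.2, 63.2 and 62.1 CPM at 3 weeks, against 74.7, 73.2 and 74.4 CPM at P5. This was a small difference with no overlap (log2 change -0.24 ± 0.08 SE, adjusted p = 0.0141). Cdkn2b, for p15, was the one member that was higher, at 1.38, 1.19 and 1.37 CPM at 3 weeks, against 0.769, 0.805 and 0.642 CPM at P5 (log2 change 0.83 ± 0.33 SE, adjusted p = 0.0347). The libraries did not overlap, but the call was lost in 5 of the 6 fits that left out one of them (adjusted p 0.0521 to 0.108). Cdkn2a had 5 reads over the 3 libraries of 3 weeks and 8 reads over those of P5. With the 2 P5 libraries that hold Xist left out, P5 is a single library that is assumed to vary like the other ages, so that fit holds no replication at P5. In it Cdkn2b (adjusted p = 0.107) and Cdkn2d (0.0892) were not called.

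**Figure D2:**
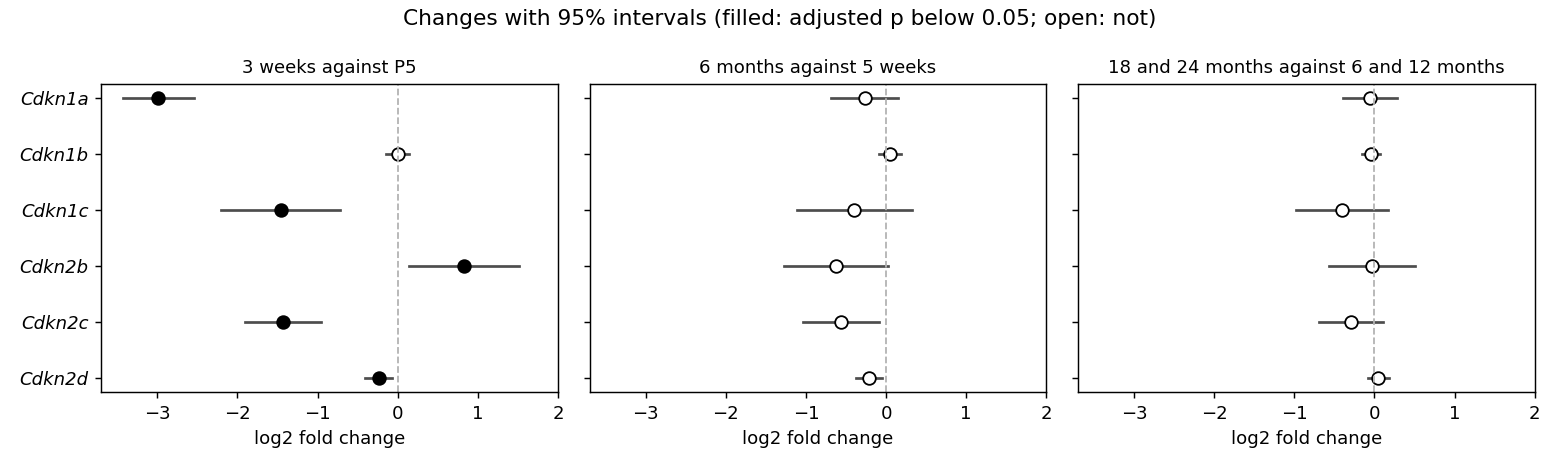
Log2 fold change (horizontal) of the 6 tested CDK inhibitors (rows) in 3 comparisons (panels), as points with 95% intervals, filled where the adjusted p is below 0.05. In the panel of 3 weeks against P5 all rows but Cdkn1b are filled, with Cdkn1a lowest at -2.99, and in the other panels none is.

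Markers of dividing cells moved in the same step. All 20 markers of proliferating cells were lower at 3 weeks, with a median log2 change of -2.29, and they summed to 97.0 to 114 CPM at 3 weeks, against 303 to 395 CPM at P5. Of 12 markers of immature neurons 10 were lower, and all 14 markers of oligodendrocytes were higher, with a median log2 change of 5.85. Other cell types moved too, with all 12 markers of microglia and all 9 tested of blood cells higher. Of 12 astrocyte markers 10 were higher and 1 lower, and of 14 of endothelium and mural cells 8 were higher and 1 lower. At most 1 marker of the proliferating list and 1 of the oligodendrocyte list were at 0 in any library. The part of these cell types in the changes of Cdkn1a, Cdkn1c and Cdkn2c was not tested.

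The kinases and cyclins that the inhibitors act on were mostly lower at 3 weeks too, 8 of 12 being lower and 1 higher, with a median log2 change of -1.10. Ccna2, the cyclin of S phase, had a log2 change of -2.82 ± 0.27 SE (adjusted p = 2.96e-09). Cdk1, the kinase of mitosis, changed by -3.03 ± 0.30 (adjusted p = 5.32e-09) and its cyclin partner Ccnb2 by -2.22 ± 0.29 (adjusted p = 5.07e-07). In the RB and E2F list 7 of 13 were lower and 2 higher, with a median of -0.36. They included Rb1 at -0.81 ± 0.09 (adjusted p = 4.47e-08), and, among the higher ones, the E2F partner Tfdp2 at 1.01 ± 0.09 (adjusted p = 3.03e-10) and the repressor E2f6 at 0.70 ± 0.07 (adjusted p = 1.37e-08).

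Of 18 other targets of p53, 6 were lower and 6 higher, with a median log2 change of -0.06, shares close to the 29.3% and 29.8% of all tested genes. Phlda3, an inhibitor of Akt, was higher (1.86 ± 0.15 SE, adjusted p = 2.57e-10), as was Zmat3, an RNA-binding protein (0.86 ± 0.10, adjusted p = 4.11e-08). Bbc3, the pro-apoptotic protein Puma, was lower (-1.48 ± 0.15, adjusted p = 9.09e-09). Of 28 genes known to regulate the inhibitors, 9 were higher and 8 lower, with a median of 0.09, which is again close to the 29.8% and 29.3% of all tested genes. The Polycomb gene Cbx7, a repressor of the Cdkn2a locus, was higher at 2.62 ± 0.11 (adjusted p = 5.28e-16). Myc was lower at -2.41 ± 0.16 (adjusted p = 3.72e-12), as was the Polycomb ligase Rnf2 at -1.27 ± 0.09 (adjusted p = 6.22e-12).

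Between 3 and 5 weeks no member was called by edgeR or by DESeq2, beside 1.45% of tested genes called lower and 0.698% higher. One member, Cdkn1a, had an unadjusted p below 0.05. It had 10.6, 9.79, 11.1 and 10.6 CPM at 5 weeks, against 16.4, 17.2 and 14.02 CPM at 3 weeks, with no overlap (log2 change -0.59 ± 0.20 SE, adjusted p = 0.154). Cdkn2d also did not overlap, with 61.0, 56.8, 59.5 and 61.1 CPM at 5 weeks, against 63.2, 63.2 and 62.1 CPM at 3 weeks, but its log2 change was -0.08 ± 0.08 SE (adjusted p = 0.796). The 4-week libraries in between had Cdkn1a at 13.6, 12.6, 16.2 and 22.7 CPM. The 4-week libraries also divide by the small RNA gene Rn7s2, which was at 1.70 to 2.103 CPM in replicates 1 and 2 and at 21.7 to 28.9 CPM in replicates 3 and 4. All 3-week libraries were of the low kind (1.44 to 2.11 CPM) and all 5-week libraries of the high kind (24.2 to 29.6 CPM), so age and kind are largely confounded. With that kind as a term, the Cdkn1a log2 change was -1.16 (adjusted p = 0.0343), and its call then rests on 4-week libraries of both kinds. Of the kinases and cyclins, Ccnb2 was lower at 5 weeks (log2 change -1.24 ± 0.31 SE, adjusted p = 0.0292). In the regulator list Cbx7 was again higher (0.54 ± 0.09, adjusted p = 0.00109), and the transcription factor Ets1, an activator of p16Ink4a in human cells, was lower (-0.40 ± 0.10, adjusted p = 0.0414).

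The step into adulthood was read at 2 and at 6 months against 5 weeks. Reads of low mapping quality made up 9.31% to 11.2% of the 5-week files and 5.41% to 5.97% of the 2-month and 6-month files. Age and this difference between the files cannot be told apart in these comparisons. At 2 months no member was called by edgeR or DESeq2, beside 9.43% of tested genes called lower and 7.13% higher, and 2 had an unadjusted p below 0.05. These were Cdkn1b, with 57.1, 55.7 and 56.4 CPM at 2 months, against 49.7, 54.3, 49.6 and 49.6 CPM at 5 weeks (log2 change 0.15 ± 0.07 SE, adjusted p = 0.122), and Cdkn2b. Cdkn2b had 1.09, 0.710 and 0.387 CPM at 2 months, against 1.40, 1.27, 1.12 and 1.22 CPM at 5 weeks (log2 change -0.77 ± 0.32 SE, adjusted p = 0.103). Cdkn1a had 14.4, 13.8 and 12.1 CPM at 2 months, against 10.6, 9.79, 11.1 and 10.6 CPM at 5 weeks (log2 change 0.35 ± 0.20 SE, adjusted p = 0.243). The groups did not overlap for any of these 3 genes, and the share of all genes that did not overlap is not given here.

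One 2-month library, replicate 11, decided the calls at that age. Cdkn2d had 67.8 CPM in it and 50.1 and 50.3 CPM in the other libraries of 2 months, against 56.8 to 61.1 CPM at 5 weeks. Without replicate 11, Cdkn2d (log2 change -0.26, adjusted p = 0.00383) and Cdkn2b (-1.17, adjusted p = 0.0304) were called lower at 2 months. Cdkn2c was also highest in that library, at 3.44 CPM beside 2.48 and 1.59 CPM. Of 16 hypothalamus markers 13 were lower at 2 months and none higher, and of 14 tested markers of midbrain and hindbrain 4 were higher and none lower. The part of the dissection in these levels was not tested.

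At 6 months against 5 weeks no member was called by edgeR or DESeq2, beside 8.39% of tested genes called lower and 4.58% higher, and 2 had an unadjusted p below 0.05. None of the 3 tested INK4 genes passed. For each the values at 6 months lay below those at 5 weeks with no overlap. The share of all genes so parted is again not given, so this is not read as a trait of the INK4 genes. Cdkn2d had 52.7, 51.2 and 50.2 CPM at 6 months, against 61.0, 56.8, 59.5 and 61.1 CPM at 5 weeks (log2 change -0.21 ± 0.08 SE, adjusted p = 0.0671). Cdkn2c had 1.85, 1.51 and 1.83 CPM at 6 months, against 1.99, 3.03, 2.71 and 2.54 CPM at 5 weeks (-0.56 ± 0.23, adjusted p = 0.109). Cdkn2b had 0.950, 0.856 and 0.622 CPM at 6 months, against 1.40, 1.27, 1.12 and 1.22 CPM at 5 weeks (-0.62 ± 0.31, adjusted p = 0.199). The Cip/Kip genes overlapped, with log2 changes of -0.27 ± 0.20 for Cdkn1a, 0.05 ± 0.07 for Cdkn1b and -0.39 ± 0.35 for Cdkn1c. In the same comparison 10 of 14 markers of oligodendrocytes and 6 of 12 of their precursors were lower, and of 14 tested markers of midbrain and hindbrain 6 were higher and 1 lower. Their part in the members' levels was not tested.

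Genes around the inhibitors were also called over the same steps. Over all tested genes 9.43% were lower and 7.13% higher at 2 months, and 8.39% lower and 4.58% higher at 6 months. At 2 and at 6 months against 5 weeks, 3 of 13 RB and E2F genes were lower and 1 was higher. Tfdp2 was the higher one both times (log2 change 0.39 ± 0.08 SE with adjusted p = 0.00132, and 0.34 ± 0.08 with adjusted p = 0.00468), and E2f8, a repressor of the E2F group, was lower both times (-1.04 ± 0.31 with adjusted p = 0.0219, and -1.57 ± 0.32 with adjusted p = 0.00212). Of the 18 p53 targets 4 were lower at 6 months and 1 higher, with Bbc3 at -0.85 ± 0.15 (adjusted p = 6.72e-04) and Bax at -0.54 ± 0.10 (adjusted p = 0.00115). Of the 28 regulators 1 was higher and 3 were lower at 2 months, and 1 was higher and 4 were lower at 6 months. Foxo3, a transcription factor that activates Cdkn1b, was lower both times (-0.50 ± 0.13 with adjusted p = 0.00959, and -0.46 ± 0.13 with adjusted p = 0.0187). None of the 12 kinases and cyclins was called at either age.

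From 2 to 24 months Cdkn2c was the 1 member with a called trend, beside 4.35% of tested genes called lower with age and 3.08% called higher. Cdkn2c averaged 2.50 CPM at 2 months, 1.73 at 6 months, 1.37 at 12 months, 1.31 at 18 months and 1.21 at 24 months. Libraries of each neighbouring pair of these ages overlapped, while the 24-month libraries (1.26 and 1.15 CPM) lay below all libraries of 2 and 6 months. The slope was -0.046 ± 0.012 log2 units per month (SE, 14 libraries, adjusted p = 0.0291), a fitted fall of 1.02 log2 units over the 22 months. The call was lost without the 2-month libraries (slope -0.028, adjusted p = 0.513), as was every other call of the trend. It was also lost without 2 months replicate 11 (-0.034, adjusted p = 0.0779), without 2 months replicate 12 (-0.043, adjusted p = 0.0823), without 18 months replicate 14 (-0.043, adjusted p = 0.0522) and without 24 months replicate 2 (-0.051, adjusted p = 0.0555). The slope was negative in every one of the 14 fits that left out a library.

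Several markers of oligodendrocyte precursors, the cells that divide in the adult brain to make oligodendrocytes, were also lower with adult age. Of 12 such markers 7 were lower in the trend and none higher, with a median slope of -0.022 log2 units per month. They summed to 747 to 865 CPM at 2 months, 588 to 691 at 6 months, 585 to 655 at 12 months, 529 to 594 at 18 months and 546 to 594 at 24 months, and none was at 0 in any library. Earlier, they summed to 1246 to 1325 CPM at 3 weeks, against 804 to 985 CPM at P5, when Cdkn2c was highest. Other lists moved with adult age too, and all these calls, those of the precursors included, were lost without the 2-month libraries. All 14 markers of oligodendrocytes were lower, with a median slope of -0.049 log2 units per month. So were 7 of 14 of endothelium and mural cells, 6 of 10 of meninges and fibroblasts and 4 of 12 of astrocytes. The same held for 4 of 12 of neurons and 4 of 14 tested of midbrain and hindbrain, with none higher in these lists. The part of these cells and of the dissection in the Cdkn2c trend was not tested.

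The other tested members had no called trend. Cdkn1a had a slope of -0.019 ± 0.011 log2 units per month (SE, adjusted p = 0.298), Cdkn1b of -0.0064 ± 0.0030 (adjusted p = 0.202) and Cdkn1c of -0.018 ± 0.023 (adjusted p = 0.646). Cdkn2b had a slope of 0.0063 ± 0.018 (adjusted p = 0.855) and Cdkn2d of -0.0026 ± 0.0047 (adjusted p = 0.762). For Cdkn2d the 95% interval of the change per month as a factor was 0.991 to 1.01, and for Cdkn1c it was the wider 0.955 to 1.02. Around them, Ccnd2, a D-type cyclin, was the 1 of 11 tested kinases and cyclins that was lower with age (slope -0.038 ± 0.007, adjusted p = 0.00956). E2f7 was higher (0.071 ± 0.018, adjusted p = 0.0289), and none of the 18 p53 targets was called. Of the 28 regulators Cbx7 was higher (0.012 ± 0.003, adjusted p = 0.0207) and Foxo4, another factor of the Foxo group, lower (-0.025 ± 0.007, adjusted p = 0.0495).

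Cdkn1c had the widest spread of the members between the libraries of 12 months and between those of 18 months, with SDs of 1.01 and 0.52 on the log2 CPM scale. It had 11.03, 4.87 and 8.21 CPM at 6 months, 6.55, 10.8 and 26.1 CPM at 12 months, 15.7, 8.57 and 8.17 CPM at 18 months and 6.92 and 5.46 CPM at 24 months. Its highest libraries from 4 weeks on, 12 months replicate 28 and 18 months replicate 14, are the ones whose choroid plexus markers stood far above the rest. Libraries next in choroid plexus markers, 12 months replicate 27 (2656 CPM) and 5 weeks replicate 2 (2612 CPM), had Cdkn1c at 10.8 and 12.7 CPM. Among the 12-month libraries replicate 28 was also the highest for markers of blood cells (554 CPM) and of meninges and fibroblasts (1264 CPM). The same held for hypothalamus (1690 CPM) and for midbrain and hindbrain (452 CPM), whose list shares Otx2 with the choroid plexus list. 12 months replicate 28 and 18 months replicate 14 were the highest of their age for Cdkn1a (13.7 and 9.96 CPM) and for Cdkn2b (1.41 and 1.16 CPM). At P5, when Cdkn1c was highest, choroid plexus markers summed to 75.4 to 443 CPM. The part of choroid plexus or of the other tissues in the Cdkn1c levels was not tested.

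**Figure D3:**
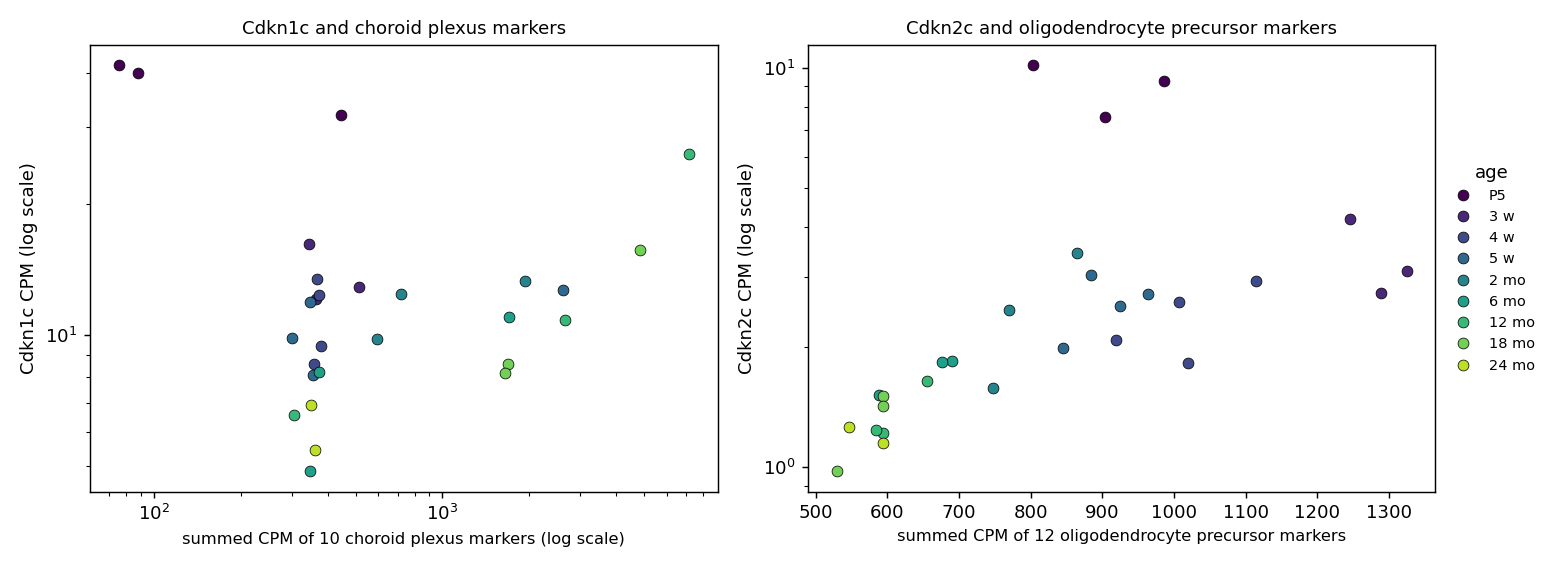
Left, Cdkn1c in CPM (vertical, log scale) against the summed CPM of 10 choroid plexus markers (horizontal, log scale), and right, Cdkn2c in CPM (vertical, log scale) against the summed CPM of 12 oligodendrocyte precursor markers (horizontal), with 1 point per library and colour for age. From 3 weeks on the highest Cdkn1c point, 26.1 CPM, lies at the highest choroid plexus sum, 7162 CPM, and the Cdkn2c points of 12 to 24 months lie at the low end of the precursor sum, while the P5 points lie above all others.

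Old mice (18 and 24 months, 5 libraries) were set against younger adults (6 and 12 months, 6 libraries). None of the 6 tested members was called by edgeR or DESeq2 and none of them had an unadjusted p below 0.05, beside 0% of tested genes called lower and 0.0296% called higher. Libraries of the groups overlapped for every member. The median log2 change of the tested members was -0.05, against 0.00 over all tested genes. Cdkn1a, a common mark of senescent cells, had 9.96, 6.91 and 7.45 CPM at 18 months and 11.7 and 7.98 CPM at 24 months, against 10.4, 8.56 and 7.13 CPM at 6 months and 7.40, 8.60 and 13.7 CPM at 12 months. Its log2 change was -0.06 ± 0.16 SE, with a 95% interval of 0.761-fold to 1.21-fold. The intervals were 0.898-fold to 1.05-fold for Cdkn1b, 0.948-fold to 1.13-fold for Cdkn2d, 0.617-fold to 1.08-fold for Cdkn2c, 0.678-fold to 1.41-fold for Cdkn2b and 0.507-fold to 1.13-fold for Cdkn1c.

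Cdkn2a, which makes p16Ink4a and p19Arf, had at most 7 reads in any library. It had 8 reads over the libraries of P5, 5 at 3 weeks, 4 at 4 weeks, 2 at 5 weeks, 1 at 2 months and 5 at 6 months, and then 13 at 12 months, 20 at 18 months and 10 at 24 months. By library these were 2, 2 and 4 at P5, 1, 2 and 2 at 3 weeks, 1, 2, 1 and 0 at 4 weeks, 0, 1, 0 and 1 at 5 weeks, 1, 0 and 0 at 2 months, 1, 1 and 3 at 6 months, 5, 2 and 6 at 12 months, 6, 7 and 7 at 18 months, and 5 and 5 at 24 months. Every library of 18 and 24 months held more reads than any library up to 6 months. Summed over an age, the level in CPM without TMM scaling was 0.0112 at 2 months (exact 95% Poisson interval 0.000282 to 0.0621), 0.0498 at 6 months (0.0162 to 0.116), 0.167 at 12 months (0.0888 to 0.285), 0.236 at 18 months (0.144 to 0.365) and 0.154 at 24 months (0.0739 to 0.283). The intervals cover counting error only.

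Cdkn2a averaged 0.197 ± 0.051 CPM at 18 and 24 months (SD, n = 5), against 0.106 ± 0.082 CPM at 6 and 12 months (SD, n = 6). The difference did not pass a two-sided exact permutation test over libraries (462 splits, p = 0.0628). On raw counts, 6.0 ± 1.0 reads at 18 and 24 months against 3.0 ± 2.1 reads at 6 and 12 months, the exact permutation p was 0.0303, and leaving out a library on the CPM scale gave 0.0238 to 0.143. The lowest of these came without 12 months replicate 28, which holds 6 Cdkn2a reads and the highest choroid plexus markers. With no filter on low counts edgeR called Cdkn2a over the 9 ages (adjusted p = 8.29e-04), beside 59.9% of all genes so tested. In the same unfiltered fits the adult trend was 0.12 log2 units per month (adjusted p = 0.0563) and the contrast of 18 and 24 months with 6 and 12 months had an unadjusted p of 0.0471 and an adjusted p of 0.885. Which of its proteins the reads belong to cannot be read from a count per gene.

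**Figure D4:**
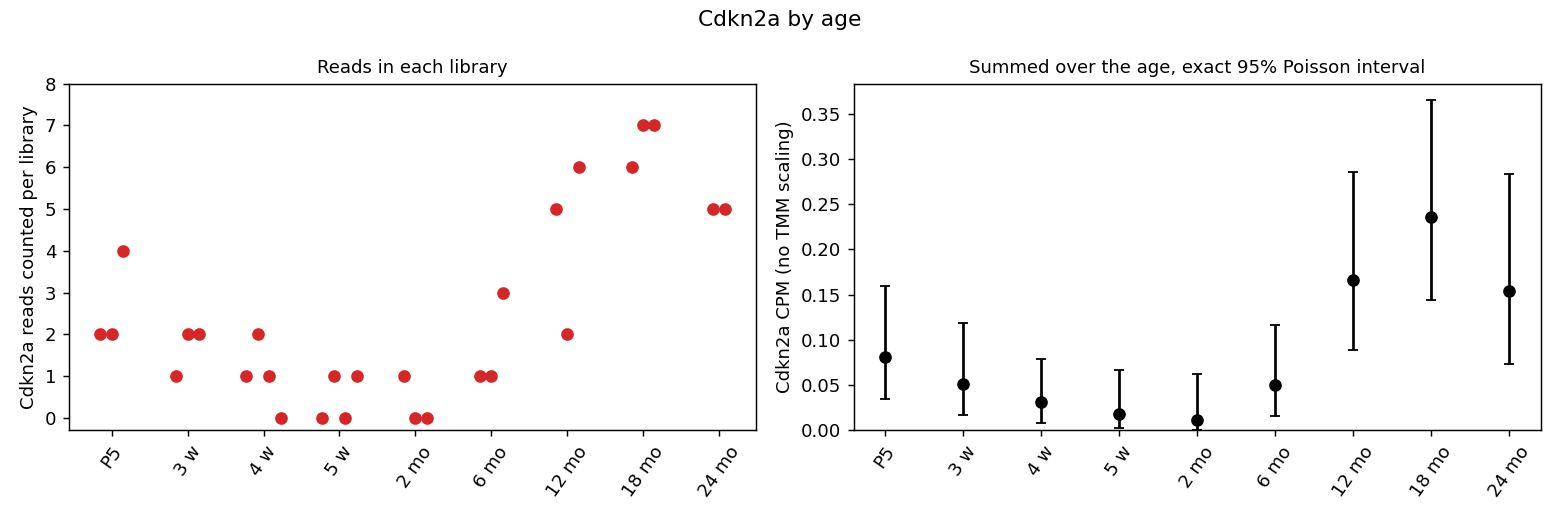
Left, Cdkn2a reads in each library (vertical) by age (horizontal), and right, the CPM of the reads summed over the libraries of an age (vertical) with its exact 95% Poisson interval. Libraries of 18 and 24 months hold 5 to 7 reads and libraries up to 6 months 0 to 4 reads.

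Of 22 genes that senescent cells are known to secrete, 14 passed the filter on low counts. At 3 weeks against P5, 2 of the 14 were higher and 3 lower, beside 29.8% and 29.3% of all tested genes. At 18 and 24 months against 6 and 12 months none was called. The median log2 change of the 14 was 0.36, against -0.003 over all tested genes. In the adult trend 2 of 13 tested were higher and none lower, beside 3.08% and 4.35% of all tested genes. The median slope of the 13 was 0.025 log2 units per month, against 0.0001 over all tested genes. Summed, the 22 genes were at 311 to 331 CPM at 2 months and at 285 to 304 CPM at 24 months. The most abundant genes weigh most in such a sum. The mean log2 CPM of the 22 genes was -1.21, -0.86 and -1.16 at 2 months, and -0.64 and -0.51 at 24 months. Up to 7 of the 22 were at 0 in these libraries. Ccl8, a chemokine, averaged 0.0197 CPM at 2 months, 0.0824 at 6 months, 0.222 at 12 months, 0.289 at 18 months and 0.458 at 24 months, where its libraries were at 0.182 and 0.733 CPM (slope 0.15 ± 0.03 log2 units per month, adjusted p = 0.0135). Mmp12, a macrophage protease, was highest at 18 and 24 months, at 0.318 and 0.386 CPM (slope 0.18 ± 0.04, adjusted p = 0.0126). Levels of Ccl8 and Mmp12 were low, beside 0.075 to 0.118 CPM for 3 reads, and both calls were lost without the 2-month libraries.

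The genes most like each called member in their course over all 28 libraries, by the root mean square difference of centred log2 CPM, were mostly genes high at P5. For Cdkn1a they included the kinase gene Sbk1 (0.296) and Rrm2, a subunit of ribonucleotide reductase (0.344), beside a median of 1.18 over 13841 genes. For Cdkn1c they were Csrp2 (0.316), S100a11 (0.375) and the basement membrane gene Nid2 (0.376), beside a median of 0.788. For Cdkn2c they were Ttc9b (0.272), the proteoglycan gene Ncan (0.285) and the transcription factor Tead2 (0.304), beside a median of 0.874. For Cdkn2d they were the translation factor Eif5a (0.0637), Pgam5 (0.0670) and Chmp1a (0.0684), beside a median of 0.315. From 3 weeks on (25 libraries) the nearest gene was Sdf2l1 for Cdkn1a (0.248), Slc31a1 for Cdkn1c (0.284), Olig1, a transcription factor of the oligodendrocyte lineage, for Cdkn2c (0.237) and Eif5a again for Cdkn2d (0.0463). Of the 3 nearest genes, none was shared between the full and the later libraries for Cdkn1a, and 1 was shared for each of Cdkn1c, Cdkn2c and Cdkn2d.

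The nearest protein-coding genes of the 4 members lower at 3 weeks against P5 include Srsf3, Faf1, Kri1 and Ap1m2, which were called lower too. Their other neighbours Rab44, Kcnq1 and Slc22a18 were tested and not called, and 4930522H14Rik was not tested. Over all tested genes 29.3% were called lower in that step. Cdkn1a lies between Srsf3, a splicing factor (log2 change -0.59 ± 0.06 SE, adjusted p = 3.52e-09), and Rab44 (1.53 ± 0.73, adjusted p = 0.0739), and neither had a change near its -2.99. The neighbours of Cdkn1c, the potassium channel gene Kcnq1 (-0.30 ± 0.37, adjusted p = 0.512) and Slc22a18 (0.53 ± 0.38, adjusted p = 0.232), were not called. Faf1, next to Cdkn2c, was lower (-0.47 ± 0.07, adjusted p = 4.61e-06), and its other neighbour 4930522H14Rik had no reads at the ages compared. Cdkn2d lies 441 bases from Kri1 (-0.25 ± 0.09, adjusted p = 0.0227) and 2868 bases from Ap1m2, an epithelial adaptor subunit (-2.69 ± 0.41, adjusted p = 3.96e-06). Mtap, next to Cdkn2a, was lower (-0.35 ± 0.12, adjusted p = 0.0167), and Dmrta1, next to Cdkn2b, was not called (0.05 ± 0.35, adjusted p = 0.922). The neighbours of Cdkn1b, Gpr19 (-0.01 ± 0.09, adjusted p = 0.935) and Apold1 (-0.25 ± 0.21, adjusted p = 0.331), were not called either.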

How the data were processed

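RNA was sequenced from 29 hypothalamus libraries of 9 ages. The deposited files hold raw counts per gene symbol that the authors made with HISAT2 2.1.0 and HTSeq 0.9.1 on mm10 (GRCm38), per the submitters' processing notes. Lines that name no gene (26.1% to 32.5% of a file) were left out. A file with fewer than 5000 genes counted was left out, so that 28 libraries were used. CPM are scaled by TMM factors, log2 CPM use a prior count of 1, and CPM per kb divide by the merged exon length in GENCODE M21.

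Age means were fitted in 1 model with edgeR 4.0.16 (R 4.3.3, filterByExpr, robust quasi-likelihood), over 16916 genes. The adult slope was fitted on 14 libraries and 16633 genes. SE is the log2 change divided by the root of F. P-values were Benjamini-Hochberg adjusted over all genes tested, and below 0.05 was called. Alternatives were DESeq2 1.42.0, RLE factors, no filter, all 29 libraries, the replicate block, a term for libraries above 10 CPM of Rn7s2 and leaving out libraries. The procedure was tested on simulated data. Cdkn2a, under the filter, had a two-sided exact permutation test. The members, marker lists and context lists were chosen with earlier results of these data known, and the named genes are the members, the 3 genes most like each called member, up to 3 called genes of each context list per comparison, smallest p first, and the nearest protein-coding genes. Promoter sequences are from RefSeq (GRCm38.p6), where 6 of 7 members matched. Cdkn1c was not matched. One of the genes most like Cdkn1a is not reported here. Figures were drawn with matplotlib.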

Additional observations from a re-analysis of the deposited data

Results flagged for a closer look

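Of 14 groups of 4 libraries examined for the members, 1 had a library far from the others. Cdkn1b in 5 weeks replicate 2 was at 54.3 CPM, against 49.6 to 49.7 CPM in the other 3 libraries of 5 weeks. Chance alone singles out a library in about 1 in 20 groups.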

How the results depend on the processing

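With the partial 24-month file included (all 29 libraries) 2 members were called over the 9 ages and 0 at 3 weeks against P5 and in the adult trend, beside 484, 340 and 0 genes in place of 12991, 9986 and 1236, since that file has no read in most genes. With P5 replicate 3 alone 3 members were called at 3 weeks against P5, where the lone library is assumed to vary like the other ages and nothing is shown of replication at P5. At 5 weeks against 3 weeks the replicate block gave 1 call (Cdkn1a, log2 change -0.69, adjusted p = 0.0372) and a term for libraries above 10 CPM of Rn7s2 gave 1, with 251 and 32 genes called in place of 363, and leaving out a library gave 0 members and 183 to 256 genes. The numbers in the titles pair no samples (the correlation of deviations from the age means was -0.21 to 0.13 over 19 pairs, and above 0.1 in 3), and the replicate block changed no call of a member at 3 weeks against P5, the other comparison whose ages share numbers. At 2 months against 5 weeks leaving out a library gave 0 to 2 members, and in the adult trend 0 to 1, with 443 to 1557 genes. The trend had 0 members without the 2-month libraries (0 genes called) and 0 with 12 months 28 and 18 months 14 left out, an alternative chosen after seeing the data. DESeq2 called 2037 genes in the trend, and 43 in place of 5 at 18 and 24 months against 6 and 12 months, where 24 months against 6 months gave 18 and leaving out a library 1 to 7. For Cdkn2a the exact permutation p was 0.0303 on raw counts and 0.0238 to 0.143 with a library left out. DESeq2 also called Cdkn2b over the 9 ages (adjusted p = 0.0466). Without the P5 libraries 7250 genes were called over the ages. RLE factors and no filter changed no call of the 6 tested members. The cause of these moves was not tested beyond what is stated. With 2 to 4 libraries an age and Cdkn2a at 7 reads or fewer, small changes and any change of Cdkn2a are poorly resolved.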
